A study of Mus musculus with 11 samples.

Results

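GADD45, sestrin and other stress-response genes were followed as a set of 10: Gadd45a, Gadd45b and Gadd45g, Sesn1, Sesn2 and Sesn3, Ddit4, Rrm2b, Zmat3 and Polk. They were chosen by symbol, and all 10 were found, each as 1 of the 15022 genes in the count table. These genes and the gene lists below were chosen with earlier results of these data known. The shares of all genes given beside their counts are therefore description only. RNA came from NIH-3T3, an established line of mouse embryonic fibroblasts that the labels give as wild type (WT). The cells had received 10 µM AS1411, a DNA aptamer that binds nucleolin, or 10 µM of a control DNA oligonucleotide. Polyadenylated RNA was sequenced from 3 AS1411 and 3 control libraries at 24 h and from 2 AS1411 and 3 control libraries at 48 h, with 13541951 to 18784497 counts per library. All groups thus come from a single cell line, and all had received a DNA oligonucleotide. Whether replicates were separate cultures is not in the labels, and the p-values below then cover only library-to-library spread, part or all of which may be technical.

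These genes are widely used as readouts of damage and nutrient stress. GADD45 proteins are small nuclear proteins that bind PCNA, the CDK1 and cyclin B1 complex and the kinase MAP3K4, through which they can activate p38 and JNK signalling. Sestrins and the product of Ddit4 (REDD1) restrain mTORC1, the growth kinase, the former through the GATOR complexes and the latter through the TSC complex. Rrm2b encodes a ribonucleotide reductase subunit that supplies deoxynucleotides for repair, Polk a polymerase that copies past damaged bases, and Zmat3 a zinc finger protein that binds RNA. Several of the 10 are known p53 targets, and some also respond to ATF4, FOXO or NF-kB.

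The oligonucleotides are shown because every comparison of treatments rests on them. In AS1411 the capitals mark guanine, and in the control they mark the cytosine that stands in its place. Both are 26 bases long with 17 such bases and 9 thymines.
AS1411: GGtGGtGGtGGttGtGGtGGtGGtGG
Control oligonucleotide: CCtCCtCCtCCttCtCCtCCtCCtCC

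At 24 h the 3 GADD45 genes and Polk were higher with AS1411, and at 48 h 8 of the 10 genes were higher and Sesn1 was lower. The count of 4 higher genes and none lower at 24 h stands beside 29.7% of all 13040 genes tested being called, 13.1% higher and 16.7% lower (edgeR quasi-likelihood test, adjusted p under 0.05). None of the 10 was lower at an unadjusted p under 0.05 or by DESeq2 either. At 48 h 57.9% of all genes were called, 29.4% higher and 28.5% lower. Past a 2-fold rise at 48 h were 4 of the 10 genes (Gadd45a, Gadd45b, Sesn2 and Ddit4), against 6.96% of all genes, and none was past a 2-fold fall, against 1.99%. The libraries of both treatments did not overlap for 7 of the 10 genes at 24 h and for all 10 at 48 h, against 49.8% and 67.9% of all genes. The median log2 fold change of the 10 genes was 0.24 at 24 h and 0.98 at 48 h, against 0.01 over all genes tested at each time. All 10 passed the filter on low counts, so none was lost before testing. Levels below are CPM, counts scaled to a common library size corrected by TMM, and fold changes compare AS1411 with the control oligo unless stated. In bulk RNA a change in the share of cells that express a gene and a change per cell cannot be told apart.

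Control replicate 2 at 48 h lay away from the other 2 controls of that time: chi-squares per gene were 9.05 and 12.1 for the pairs that include it and 4.73 for the pair that does not. Without it 9 genes were higher and 1 lower at 48 h, the added gene being Zmat3. Over all genes 3901 were then higher and 3796 lower, in place of 3835 and 3713. At 24 h 5 genes were higher without it, the added gene being Rrm2b. Calls over all genes rose there too, to 2225 higher and 2544 lower in place of 1702 and 2176. With library totals as the only scaling, which moved the median of all genes at 48 h to 0.16 on the log2 scale, 9 genes were higher and none lower at 48 h, while over all genes 5428 were higher and 2372 lower in place of 3835 and 3713. At 24 h this scaling gave 5 genes higher and none lower, and 2884 higher and 1201 lower over all genes in place of 1702 and 2176.

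**Figure D1:**
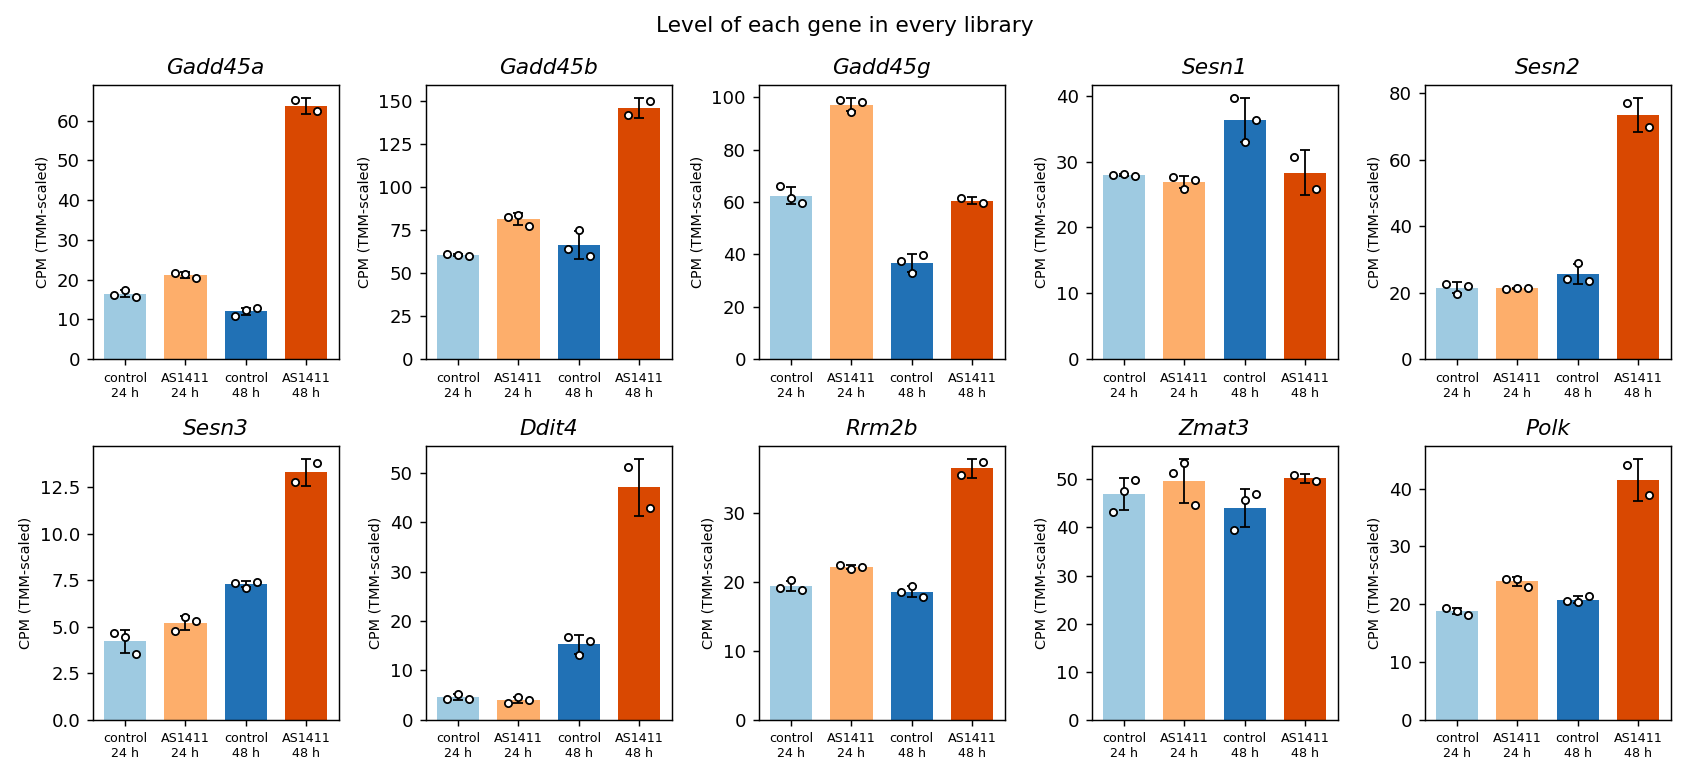
Level of each of the 10 genes in every library, in CPM on a linear axis from 0. Bars are group means, error bars are the SD, and open circles are single libraries (n = 3, 3, 3 and 2). In the AS1411 libraries at 48 h Gadd45a sits at 62.3 and 65.1 CPM against 10.9 to 12.8 CPM in the control libraries, while the bars of Zmat3 stay between 44.0 and 50.2 CPM.

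The GADD45 promoters are shown first, because all 3 GADD45 genes were higher with AS1411 at both times. The sequences come from RefSeq (GRCm38.p6), 5′ to 3′ on the gene's strand, from 250 bases before to 50 after the annotated start. Capitals mark the octamer ATTTGCAT, the amino acid response core TGATGNAA, the CCAAT box and the TATA box TATAAA, on either strand.
Gadd45a promoter (chr6:67037358-67037657, minus strand): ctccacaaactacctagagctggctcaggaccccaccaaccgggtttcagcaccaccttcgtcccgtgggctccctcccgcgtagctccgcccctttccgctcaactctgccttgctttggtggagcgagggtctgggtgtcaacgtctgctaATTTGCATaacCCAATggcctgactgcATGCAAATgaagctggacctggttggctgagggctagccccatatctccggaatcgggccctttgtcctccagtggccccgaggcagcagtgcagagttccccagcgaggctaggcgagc
Gadd45b promoter (chr10:80929841-80930140, plus strand): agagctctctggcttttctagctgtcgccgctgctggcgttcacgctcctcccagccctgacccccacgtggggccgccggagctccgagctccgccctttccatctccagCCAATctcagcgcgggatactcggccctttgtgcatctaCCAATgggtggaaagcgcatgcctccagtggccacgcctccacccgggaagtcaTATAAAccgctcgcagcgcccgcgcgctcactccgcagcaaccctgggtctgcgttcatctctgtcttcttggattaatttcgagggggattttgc
Gadd45g promoter (chr13:51846425-51846724, plus strand): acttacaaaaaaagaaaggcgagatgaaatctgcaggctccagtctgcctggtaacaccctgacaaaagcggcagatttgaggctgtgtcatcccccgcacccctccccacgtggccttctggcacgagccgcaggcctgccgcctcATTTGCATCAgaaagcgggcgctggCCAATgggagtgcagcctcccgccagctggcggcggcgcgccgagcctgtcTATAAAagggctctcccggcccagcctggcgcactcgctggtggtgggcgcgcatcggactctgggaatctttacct

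The Gadd45a window held 2 octamers on opposite strands, starting at -97 and -70, with a CCAAT box at -86 between them. In human GADD45A, octamer and CCAAT elements of the promoter are known as sites of OCT1 and NF-Y. Gadd45b had 2 CCAAT boxes, at -139 and -100, and a TATA box at -46. Gadd45g had an octamer at -103 that overlapped an amino acid response core at -101, a CCAAT box at -78 and a TATA box at -27.

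Promoters were matched for 8 of the 10 genes, and Sesn1 and Polk had 2 start sites each. A gene was counted if any of its windows matched, whereas the shares of all promoters are per window. Both strands were searched in all 32851 promoters of the table. The octamer was in 1.74% of all promoters and in 3 of the 8 genes (Gadd45a, Gadd45g and Sesn3). A CCAAT box was in 37.4% of all promoters and in 7 of the 8, the gene without one being Polk. The response core was in 3.97% of all promoters and in 2 of the 8 (Gadd45g and Polk), and the TATA box in 13.6% and in 2 of the 8. A forkhead core, GTAAACA, was in 3.65% of all promoters and in Sesn1 only among the 8. The CRE TGACGTCA (1.79% of all promoters) and the AP-1 motif TGANTCA (7.81%) had no match among the 8. The p53 decamer was in 8.36% of all promoters and in 3 of the 8 (Gadd45a, Sesn1 and Polk). All matches of Polk lay in its window inside the gene (chr13:96519138-96519437). The window at its 5′ end (chr13:96542530-96542829) held none of these motifs. Motif matches describe the letters of the windows and say nothing of factor binding.

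Gadd45a (chromosome 6, 67035096 to 67037457, GRCm38), the classic p53-induced member, made the largest rise among the 10 genes at 48 h. At 24 h it was at 16.2, 17.5 and 15.6 CPM in control libraries and at 21.7, 21.5 and 20.4 CPM with AS1411, and the log2 fold change was 0.36 ± 0.08 (standard error; adjusted p = 0.00193). The control libraries at 48 h were at 10.9, 12.2 and 12.8 CPM and the AS1411 libraries at 65.1 and 62.3 CPM, which gave 2.41 ± 0.08 (adjusted p = 7.3e-14). Every AS1411 library stood above every control library at both times, and the control level fell between the times. The 48 h change ranked 103 from the top of 13040 genes. Gadd45a shares 337 exon bases with E230016M11Rik, a gene on the opposite strand, and whether counting used strand is not given in the sources used here. E230016M11Rik was at 0.415 to 1.47 CPM over all libraries and was not called at 48 h (0.52 ± 0.41, adjusted p = 0.294).

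Gadd45b (chromosome 10, 80930073 to 80932204), known to be induced through NF-kB and TGF-beta, was at 61.2, 60.6 and 59.9 CPM in control libraries at 24 h and at 82.5, 83.9 and 77.3 CPM with AS1411 (0.42 ± 0.07, adjusted p = 1.7e-04). At 48 h the control libraries were at 63.8, 75.2 and 60.1 CPM and the AS1411 libraries at 142 and 150.2 CPM (1.14 ± 0.07, adjusted p = 5.0e-10). The groups did not overlap at either time, and control replicate 2 at 48 h was the highest control library. The rise was thus 1.34-fold at 24 h and 2.2-fold at 48 h.

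Gadd45g (chromosome 13, 51846678 to 51848468), known as a cytokine-induced growth suppressor, had the largest rise of the 10 at 24 h. It was at 65.9, 61.3 and 59.7 CPM in control libraries and at 99.1, 94.2 and 98.1 CPM with AS1411 (0.64 ± 0.06, adjusted p = 4.9e-07). Control libraries at 48 h held 37.6, 33.0 and 39.6 CPM and AS1411 libraries 61.4 and 59.7 CPM with AS1411 (0.72 ± 0.07, adjusted p = 6.8e-08). AS1411 libraries were above control libraries at both times. The level with AS1411 at 48 h, 60.5 ± 1.23 CPM (SD, n = 2), lay close to that of control cells at 24 h, 62.3 ± 3.25 CPM (SD, n = 3), and the gene fell with time in both treatments.

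Per length, the family's leading member differed between the times. Levels here are RPKM, the CPM divided by the length of all annotated exons in kilobases. In control cells at 24 h the 3 genes summed to 100.5 ± 3.24 RPKM (SD, n = 3), of which Gadd45g made up 52.8% ± 1.13, Gadd45b 37.9% ± 0.818 and Gadd45a 9.26% ± 0.537. With AS1411 at 48 h the sum was 179.7 ± 1.44 RPKM (SD, n = 2), of which Gadd45b made up 51.2% ± 1.59, Gadd45g 28.7% ± 0.812 and Gadd45a 20.1% ± 0.779. Gadd45b was also the leading member in control cells at 48 h, at 52.2% ± 4.82 of 79.9 ± 2.22 RPKM. The share of Gadd45a stood at 7.86% to 9.87% in all 9 other libraries and at 19.6% and 20.7% in the AS1411 libraries at 48 h.

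**Figure D2:**
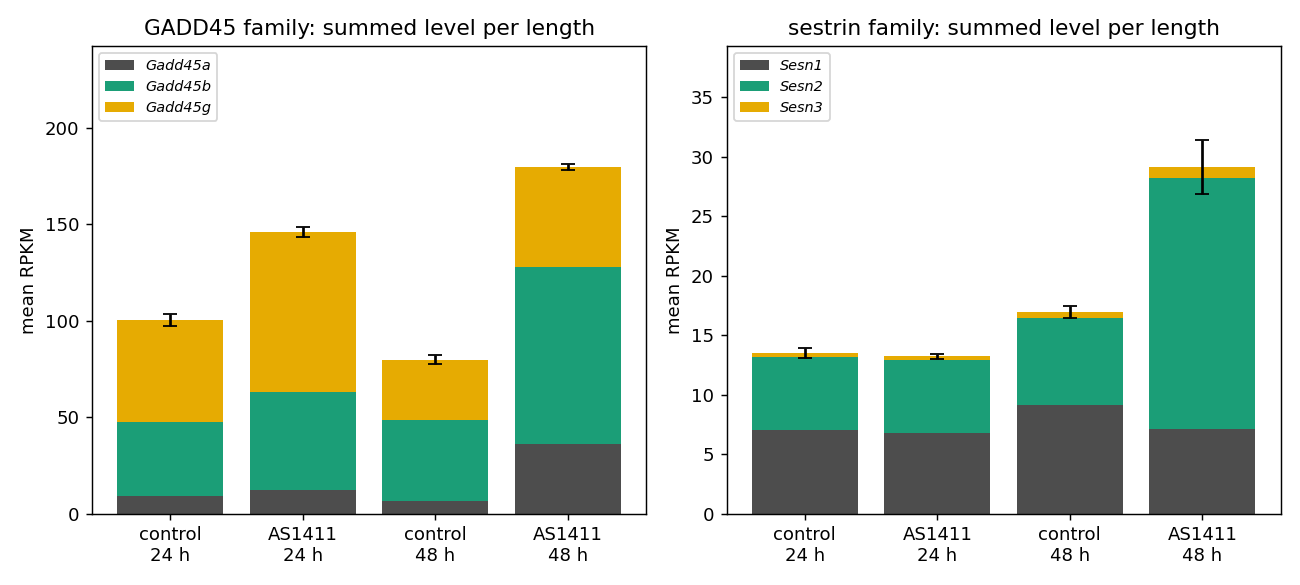
Summed level of the GADD45 genes (left) and of the sestrins (right) in RPKM, from 0, with the mean of each gene stacked and the SD of the family sum as error bar. The GADD45 sum goes from 79.9 RPKM in control cells to 179.7 RPKM with AS1411 at 48 h, and the sestrin sum from 16.9 to 29.1 RPKM, of which Sesn2 makes up 72.6%.

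The sestrins went apart at 48 h: Sesn2 and Sesn3 were higher with AS1411, and Sesn1 was lower, while none of the 3 was called at 24 h. Sesn2 (chromosome 4, 132492032 to 132510501) is known as a leucine-binding sestrin and a target of p53 and ATF4. It was at 22.7, 19.7 and 22.0 CPM in control libraries at 24 h and at 21.2, 21.3 and 21.3 CPM with AS1411, so that the groups overlapped (-0.02 ± 0.09, adjusted p = 0.914). At 48 h it was at 24.0, 29.0 and 23.4 CPM in control libraries and at 77.0 and 69.9 CPM with AS1411, a 2.89-fold rise (1.53 ± 0.08, adjusted p = 4.3e-11). Both AS1411 libraries were far above all control libraries. The sign of the 24 h value, which was not called, turned with library totals alone (0.063) and with upper-quartile scaling (0.012).

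Sesn3 (chromosome 9, 14275067 to 14333101), known as a FOXO target, was the lowest of the 10 genes per length. It was at 4.69, 4.43 and 3.52 CPM in control libraries at 24 h and at 4.80, 5.55 and 5.31 CPM with AS1411 (0.30 ± 0.14, adjusted p = 0.126). The lowest AS1411 library lay just above the highest control library. Its 48 h levels were 7.34, 7.10 and 7.42 CPM in control libraries and 12.8 and 13.8 CPM with AS1411 (0.87 ± 0.12, adjusted p = 9.5e-06). The raw counts behind these values ran from 48 to 224 reads a library, so its precision was lower than that of the other sestrins.

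Sesn1 (chromosome 10, 41809935 to 41908424), a p53 and FOXO target in other settings, was the only 1 of the 10 called lower. At 24 h it was at 28.0, 28.1 and 27.8 CPM in control libraries and at 27.7, 25.9 and 27.1 CPM with AS1411 (-0.05 ± 0.08, adjusted p = 0.649, and 0.024 with library totals alone). By 48 h the control libraries were at 39.7, 33.0 and 36.3 CPM and the AS1411 libraries at 30.7 and 25.9 CPM (-0.36 ± 0.09, adjusted p = 0.00165). The groups did not overlap at 48 h, but the gap between the nearest libraries was small. With library totals as the only scaling the value was -0.21 and was no longer called (adjusted p = 0.0551). In AS1411 cells the level at 48 h, 28.3 ± 3.40 CPM, was near that of both groups at 24 h, whereas in control cells it had risen to 36.3 ± 3.33 CPM.

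By group means Sesn1 was the leading sestrin per length in control cells at 48 h and Sesn2 with AS1411, although in control replicate 2 at 48 h both were level (8.29 RPKM for Sesn1 and 8.33 RPKM for Sesn2). Sesn1 made up 53.9% ± 4.74 of the sestrin RPKM in control cells at 48 h and 24.4% ± 1.05 with AS1411, and Sesn2 made up 43.3% ± 4.81 and 72.6% ± 0.647. At 24 h the shares of Sesn1 were 52.2% ± 1.87 and 51.1% ± 1.03. Sesn3 held between 1.70% and 3.29% in every library.

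Ddit4 (chromosome 10, 59949669 to 59951834), known as a target of hypoxia, glucocorticoids, ATF4 and p53, combined a rise with time in both treatments with a further rise with AS1411. At 24 h it was at 4.15, 5.24 and 4.26 CPM in control libraries and at 3.35, 4.53 and 4.05 CPM with AS1411, with overlapping groups (-0.20 ± 0.17, adjusted p = 0.414). At 48 h it was at 16.7, 13.2 and 16.0 CPM in control libraries and at 51.1 and 42.9 CPM with AS1411, a 3.09-fold rise (1.63 ± 0.11, adjusted p = 7.2e-10). The AS1411 libraries were the highest of all. Between the times the level rose 3.35-fold in control cells and 11.9-fold in AS1411 cells, the largest change with time among the 10 genes in either treatment.

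The repair genes Rrm2b and Polk about doubled at 48 h, and Zmat3, the RNA-binding member, was not called. Rrm2b (chromosome 15, 37923952 to 37961318), the p53-induced reductase subunit, was at 19.2, 20.3 and 18.9 CPM in control libraries at 24 h and at 22.5, 21.8 and 22.1 CPM with AS1411. The groups did not overlap, and the log2 fold change of 0.19 ± 0.07 just missed the threshold (adjusted p = 0.055). This value passed under 7 of 21 alternatives, among them library totals alone (0.27) and only the 24 h libraries (0.20). The 48 h values were 18.5, 19.5 and 17.9 CPM in control libraries and 35.5 and 37.5 CPM with AS1411 (0.97 ± 0.08, adjusted p = 4.5e-09). A pseudogene, Gm3362, lies within Rrm2b without sharing exon bases, and Gm49085 on the opposite strand shares 734 exon bases.

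Polk (chromosome 13, 96480690 to 96542579), a Y-family polymerase, was at 19.3, 18.9 and 18.2 CPM in control libraries at 24 h and at 24.4, 24.4 and 23.0 CPM with AS1411 (0.35 ± 0.07, adjusted p = 0.00194). At 48 h it was at 20.6, 20.3 and 21.4 CPM in control libraries and at 44.1 and 38.9 CPM with AS1411 (0.9996 ± 0.0764, adjusted p = 3.6e-09). AS1411 libraries stood above control libraries at both times. Zmat3 (chromosome 3, 32334792 to 32366014), a p53 target that binds RNA, was at 43.3, 47.5 and 49.97 CPM in control libraries at 24 h and at 51.3, 53.3 and 44.6 CPM with AS1411 (0.08 ± 0.08, adjusted p = 0.456). At 48 h it was at 39.5, 45.7 and 46.9 CPM in control libraries and at 50.9 and 49.6 CPM with AS1411. These groups did not overlap, yet the log2 fold change was 0.19 ± 0.08 and did not pass (adjusted p = 0.0685). It passed under 5 of 21 alternatives, 2 of them without control replicate 2 (0.22) or 3 (0.23) at 48 h.

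**Figure D3:**
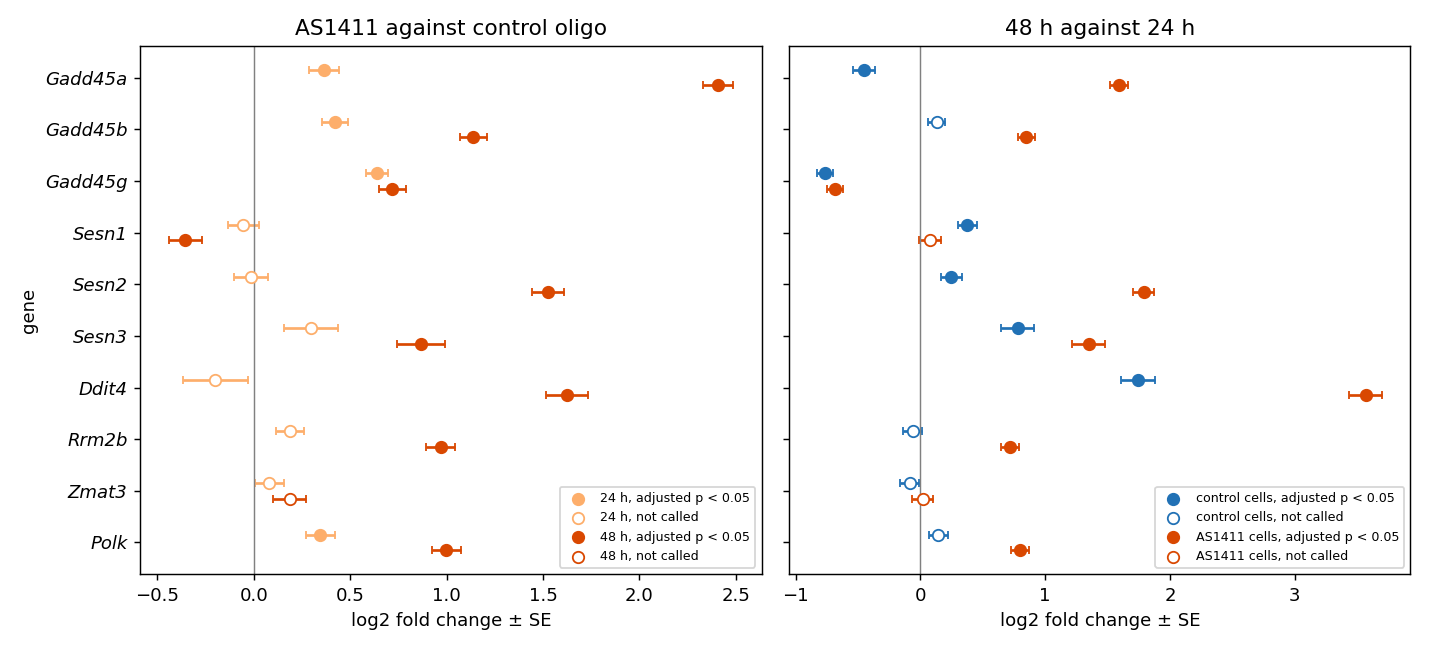
Log2 fold changes with their standard errors for the 10 genes, AS1411 against control oligo on the left and 48 h against 24 h on the right. Filled points passed an adjusted p of 0.05, and open points did not. Gadd45a lies at 0.36 and 2.41 on the left, Gadd45g at 0.64 and 0.72, and Ddit4 at 1.75 in control and 3.57 in AS1411 cells on the right.

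With time in control cells, 4 of the 10 genes rose and 2 fell, against 24.8% of all genes called, 11.6% higher and 13.2% lower. Library totals alone gave 1928 genes higher and 1349 lower in place of 1513 and 1723. Ddit4 (1.75 ± 0.14, adjusted p = 4.1e-08), Sesn3 (0.78 ± 0.13, adjusted p = 3.4e-04) and Sesn1 (0.38 ± 0.08, adjusted p = 0.00159) rose, as did Sesn2 by a smaller amount (0.25 ± 0.09, adjusted p = 0.0411). The call of Sesn2 was lost under 9 of 21 alternatives, and without control replicate 2 at 48 h its value was 0.15 (adjusted p = 0.177). Gadd45g fell by 0.76 ± 0.06 (adjusted p = 9.0e-08) and Gadd45a by 0.45 ± 0.08 (adjusted p = 7.1e-04) on the log2 scale. The control level of Gadd45a at 48 h was thus the lowest of its 4 groups. Gadd45b (0.13 ± 0.07), Polk (0.14 ± 0.08), Rrm2b (-0.06 ± 0.07) and Zmat3 (-0.09 ± 0.08) were not called.

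In AS1411 cells 7 genes rose with time and Gadd45g fell (-0.68 ± 0.07, adjusted p = 1.4e-07), against 49.1% of all genes called, 24.5% higher and 24.6% lower. Library totals alone gave 4337 higher and 2050 lower over all genes in place of 3192 and 3206. Gadd45a rose by 1.59 ± 0.08 and Sesn2 by 1.79 ± 0.08 on the log2 scale, followed by Sesn3 (1.348 ± 0.13), Gadd45b (0.85 ± 0.07), Polk (0.80 ± 0.08) and Rrm2b (0.72 ± 0.07) besides Ddit4. Sesn1 (0.07 ± 0.09) and Zmat3 (0.02 ± 0.08) were not called. This comparison and the treatment comparisons share libraries, so their values are set side by side only.

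The 48 h effect of AS1411 was larger than the 24 h effect for 7 of the 10 genes by a test of the difference itself, against 27.6% of all genes called, 13.4% higher and 14.1% lower. Library totals alone gave 2305 higher and 1192 lower over all genes in place of 1749 and 1845. The difference was 2.04 ± 0.11 for Gadd45a (adjusted p = 4.4e-10), 1.82 ± 0.20 for Ddit4 (adjusted p = 3.7e-06) and 1.54 ± 0.12 for Sesn2 (adjusted p = 4.1e-08) on the log2 scale. Rrm2b (0.78 ± 0.10), Gadd45b (0.72 ± 0.10), Polk (0.65 ± 0.11) and Sesn3 (0.57 ± 0.19, adjusted p = 0.032) made up the rest. The call of Sesn3 was lost under 9 of 20 alternatives, among them the DESeq2 Wald test. Gadd45g differed by 0.08 ± 0.09 between the times and was not called (adjusted p = 0.552). Sesn1 (-0.30 ± 0.12, adjusted p = 0.0632) was called under 3 of 20 alternatives, 2 of them without control replicate 2 (-0.36) or without AS1411 replicate 1 (-0.45) at 48 h.

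Compared per length in control cells at 24 h, the order of levels ran from Gadd45g (53.1 ± 2.77 RPKM) and Gadd45b (38.1 ± 0.409) through Gadd45a (9.31 ± 0.532), Sesn1 (7.02 ± 0.0411), Sesn2 (6.17 ± 0.453), Zmat3 (4.10 ± 0.294), Polk (3.38 ± 0.101), Ddit4 (2.59 ± 0.342) and Rrm2b (2.13 ± 0.0815) to Sesn3 (0.276 ± 0.0402). No neighbours in this order overlapped in their ranges over the 3 libraries. With AS1411 at 48 h the order was Gadd45b (92.0 ± 3.60), Gadd45g (51.6 ± 1.04), Gadd45a (36.1 ± 1.11), Ddit4 (26.8 ± 3.31), Sesn2 (21.1 ± 1.45), Polk (7.48 ± 0.660), Sesn1 (7.10 ± 0.854), Zmat3 (4.39 ± 0.0829), Rrm2b (3.99 ± 0.155) and Sesn3 (0.871 ± 0.0483). There Polk and Sesn1 were the only neighbours with overlapping ranges over the 2 libraries. By group means Ddit4 was in the eighth place in control cells at 24 h and in the fourth at 48 h in both treatments. In control cells at 48 h it was at 8.70 ± 1.06 RPKM. Its range there, 7.50 to 9.50 RPKM, overlapped those of Sesn1 (8.29 to 9.96) and Sesn2 (6.75 to 8.33). The lengths used, from 1173 bases for Gadd45g to 15269 for Sesn3, count every annotated exon, so genes with long or rarely used exons are set low.

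The genes most like each member were those with the smallest root mean square difference of log2 CPM, centred on each gene's mean, over the 11 libraries among 11560 genes. For Gadd45a these were the pro-apoptotic Pmaip1 (0.13, against an own deviation of 0.82) and Mdm2 (0.19), the gene of the ligase that marks p53 for degradation. Gadd45g was closest to Rhob (0.17 of 0.52) and the phosphatase gene Dusp1 (0.17), Gadd45b to Mgea5 (0.09 of 0.46) and Carhsp1 (0.10). For Sesn2 they were Zfp367 (0.17 of 0.67) and Neurl1a (0.18), for Sesn3 Pnrc1 (0.15 of 0.58) and Trp53inp2 (0.15), and for Sesn1 Fam126a (0.06 of 0.19) and Cavin3 (0.06). Rrm2b was closest to Tgoln1 (0.05 of 0.35) and the replication licensing gene Cdc6 (0.06), Polk to Zfyve1 (0.07 of 0.40) and Hes6 (0.08). The closest to Ddit4, which varied most, were Parp14 (0.44 of 1.348) and Upk3b (0.55), both under 3 CPM in every group. Zmat3 varied little, and its closest genes Mcm9 (0.06 of 0.12) and Smad1 (0.07) did so too. These are descriptions of 4 groups and carry no test.

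Lists of genes around the members were counted next, beside 13.1% of all genes called higher and 16.7% lower at 24 h and 29.4% and 28.5% at 48 h. The genes named from each list are those with the smallest adjusted p, not the largest changes. Of 29 other p53 targets tested, 11 rose and 3 fell at 24 h (median 0.15), and 21 rose and 2 fell at 48 h (median 0.69). At 48 h Mdm2 (1.93 ± 0.05), the stress kinase gene Plk2 (1.23 ± 0.05) and the cell cycle inhibitor Cdkn1a (3.24 ± 0.11) had the smallest adjusted p. At 24 h these were Gpx1 (-1.001 ± 0.06), which encodes a glutathione peroxidase, Dcxr (0.68 ± 0.14) and Plk2 (-0.24 ± 0.05), so Plk2 went both ways. The transcript of p53 itself, Trp53, was lower at 24 h (-0.21 ± 0.04, adjusted p = 7.0e-04) and not called at 48 h (0.04 ± 0.04, adjusted p = 0.435). Of 22 integrated stress response genes, 6 rose and 6 fell at 24 h, and 11 rose and 7 fell at 48 h (median 0.08), among them the eIF2-alpha phosphatase subunit Ppp1r15a (2.54 ± 0.06), Atf3 (2.81 ± 0.11) and Ddit3 (1.46 ± 0.08). At 24 h Nupr1 (0.74 ± 0.08), Atf5 (0.44 ± 0.06) and Ppp1r15a (0.33 ± 0.06) were among those that rose. Ddit3 was not called at 24 h (-0.07 ± 0.09, adjusted p = 0.599). Of 21 FOXO factors and targets, 6 rose and 1 fell at 24 h, with Map1lc3b (0.32 ± 0.05), Klf6 (0.24 ± 0.05) and Gabarapl1 (0.19 ± 0.05) among those that rose. At 48 h 9 rose and 3 fell, with rises of Txnip (3.40 ± 0.10), Klf6 (0.73 ± 0.06) and Map1lc3b (0.59 ± 0.05).

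Of 15 GADD45 partners tested, 2 rose and 6 fell at 24 h (median -0.08), and 3 rose and 7 fell at 48 h (median -0.23), against a median of 0.01 over all genes. Map3k4, the kinase that GADD45 proteins bind and activate, fell from 68.3 CPM in control cells to 38.4 CPM at 48 h (-0.83 ± 0.06, adjusted p = 2.2e-09). The mitotic genes Aurka (-0.64 ± 0.05), Ccnb1 (-0.40 ± 0.05) and Cdk1 (-0.26 ± 0.03) were lower at 24 h, and all 3 were lower at 48 h too (-0.43 ± 0.05, -0.30 ± 0.05 and -0.23 ± 0.04). Cdkn1a, counted here too, was the largest of the 3 rises at 48 h. A list around GATOR, AMPK and TSC had 24 genes tested. Of these, 10 rose and 3 fell at 24 h, and 12 rose and 4 fell at 48 h (median 0.18). Ulk1, Castor2, Rbx1 and Sqstm1, all among the rises at 48 h, are not subunits of these complexes. The autophagy kinase gene Ulk1 (0.32 ± 0.05 and 0.49 ± 0.06) and Castor2 (0.97 ± 0.09 and 0.78 ± 0.09), a homologue of the arginine sensor, rose at both times. Mios, a GATOR2 subunit, fell at both (-0.25 ± 0.07 and -0.65 ± 0.08), and the AMPK subunit Prkaa1 fell at 24 h (-0.21 ± 0.04).

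Of 11 nucleotide supply genes tested around Rrm2b, 2 rose and 2 fell at 24 h, and 8 rose and 2 fell at 48 h (median 0.18). Rrm2, the cell cycle reductase subunit, rose from 216 to 377 CPM at 48 h (0.80 ± 0.04, adjusted p = 2.7e-11) and was not called at 24 h (-0.03 ± 0.04, adjusted p = 0.657). Deoxycytidine kinase (Dck) rose at both times (0.27 ± 0.04 and 0.70 ± 0.05), the deaminase gene Dctd fell at both (-0.12 ± 0.04 and -0.43 ± 0.05), and at 24 h Dut fell (-0.20 ± 0.04) and Tk2 rose (0.28 ± 0.08). Translesion genes other than Polk were split: none rose and 1 of 15, Usp1 (-0.20 ± 0.04), fell at 24 h. At 48 h 4 rose and 4 fell (median 0.00), among them Ube2b (0.42 ± 0.04), Atad5 (0.60 ± 0.08) and Usp1 (-0.31 ± 0.05). Among 3 relatives of Zmat3, none was called at 24 h, Zmat1 rose (1.69 ± 0.24) and Zmat5 fell (-0.29 ± 0.12) at 48 h.

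**Figure D4:**
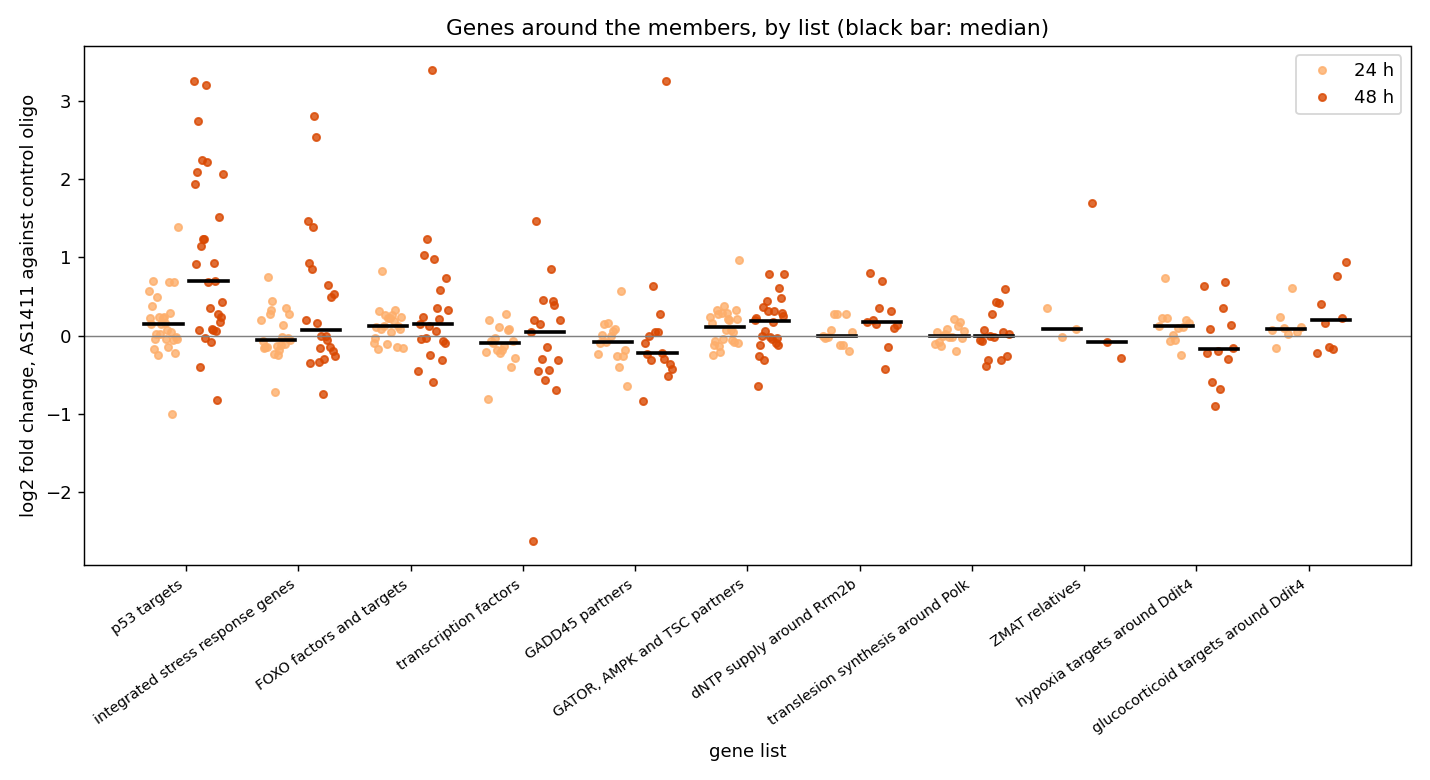
Log2 fold changes of AS1411 against control oligo for the tested genes of 11 lists around the members, at 24 h (light) and 48 h (dark). Each point is 1 gene and each black bar a median. The median of the p53 targets goes from 0.15 to 0.69 and that of the GADD45 partners from -0.08 to -0.23.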

How the data were processed

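Polyadenylated RNA of 11 NIH-3T3 libraries was analysed, grouped by their titles. The authors deposited raw counts per gene and a signal table that equals those counts divided by a size factor per library (within 0.01 reads, largest difference 0.00603 reads), which was used for that check only. Per the submitters' processing notes, bcl2fastq, cutadapt, STAR, HTSeq and DESeq2 were used on GRCm38, with settings not given in the sources used here. No gene totalled under 8 counts. Symbols were matched for 14967 identifiers and not for 55, and positions and exon lengths are from GENCODE M21 (GRCm38).

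Counts were filtered with filterByExpr (13040 genes left), scaled by TMM and fitted with 1 coefficient per group over all 11 libraries (edgeR 4.0.16, R 4.3.3, quasi-likelihood, robust, 7 residual degrees of freedom). Tests were two-sided with Benjamini-Hochberg adjustment over all 13040 genes and a threshold of 0.05, and SEs are the log2 fold change over the square root of F. The fit was also run on simulated counts drawn with its own dispersion estimates. This checks the code and not how well the fit suits these data. Libraries of a group differed by a chi-square per gene of 1.53 or more, so none was a copy of another. This value cannot tell technical repeats from separate cultures. Lists of 4 to 30 genes were described by counts and medians. Named were all members, up to 3 genes per list and treatment comparison with the smallest adjusted p, and the 2 most similar genes per member. The members and lists were chosen with earlier results of these data known. Alternatives were 3 scalings, 2 filters, DESeq2 1.42.0, a fit of only the libraries compared, a non-robust dispersion, a replicate block, a threshold of 0.01 and leaving out each library.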

Additional observations from a re-analysis of the deposited data

Results flagged for a closer look

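For 7 of the 10 genes the effect of AS1411 differed between 24 h and 48 h by a test of the difference itself (edgeR, adjusted p under 0.05), against 27.6% of all genes called, 13.4% with the larger value at 48 h. On the log2 scale the 48 h effect exceeded the 24 h effect by 2.04 for Gadd45a, 1.82 for Ddit4, 1.54 for Sesn2, 0.78 for Rrm2b, 0.72 for Gadd45b, 0.65 for Polk and 0.57 for Sesn3. All 7 differences have the same direction, and the call of Sesn3 was lost under 9 of 20 alternatives. For Gadd45a the control level also fell between the times, by 0.45, and for Ddit4 and Sesn3 it rose, by 1.75 and 0.78.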

How the results depend on the processing

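Over 21 alternatives, 997 of 1040 values of single members kept their direction and their side of the threshold, 19 lost a call, 16 gained one and 8 changed sign. The sign changes all concern values that were not called. At 24 h they were Sesn1 with library totals alone (0.024) and Sesn2 with library totals alone (0.063) and upper-quartile scaling (0.012). With single libraries left out, Sesn2 at 24 h ran from -0.068 to 0.037, and for time in AS1411 cells Sesn1 ran from -0.065 to 0.181 and Zmat3 from -0.057 to 0.069. The number of members called lower at 48 h went from 1 to 0 with library totals alone. The number called with a 48 h effect below the 24 h effect went from 0 to 1 (Sesn1, -0.30, adjusted p = 0.0462) with the replicate block. That number ran from 0 to 1 when single libraries were left out. The cause of these changes was not tested.

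The labels do not say that replicate numbers pair the samples. At 24 h the deviations of same-numbered AS1411 and control libraries correlated at -0.059 to 0.035, and not every library was closest to its own number. At 48 h, with only 2 pairs, same-numbered libraries correlated at 0.191 and 0.312, and AS1411 replicate 1 correlated at 0.207 with control replicate 3. Deviations of 2 libraries from their mean are equal and opposite, so the values of both AS1411 libraries are not independent. The numbers were therefore not treated as pairs. With the replicate block, 1738 genes were higher and 2225 lower at 24 h, against 1702 and 2176 without it. Over all genes, the number higher at 24 h was 1702, against 2719 with only the 24 h libraries, 2884 with library totals alone (1201 lower, against 2176) and 1122 without AS1411 replicate 1. Library totals alone also gave 2372 lower at 48 h, against 3713. For time in control cells, 1125 to 1147 genes were called lower without any single control library of 24 h, against 1723. With library totals alone 1192 genes were called with a 48 h effect below the 24 h effect, against 1845. That scaling also gave 2050 called lower with time in AS1411 cells, against 3206. The fit of only the libraries compared gives no test of the difference between the times. The depth limits Sesn3 and Ddit4 most, with 48 to 101 and 53 to 78 reads a library at 24 h.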

Other observations

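The counts of this section stand beside 13.1% of all genes called higher and 16.7% lower at 24 h, and 29.4% and 28.5% at 48 h. Of 12 hypoxia targets tested, 3 rose and none fell at 24 h, namely Pdk1 (0.74 ± 0.09), Slc2a1 (0.22 ± 0.05) and Higd1a (0.19 ± 0.06). At 48 h 2 rose and 5 fell (median -0.18), with Egln1 (-0.68 ± 0.05), Vegfa (0.64 ± 0.06) and Bnip3 (-0.59 ± 0.11) having the smallest adjusted p. Of 8 glucocorticoid targets, 2 rose at 24 h, Dusp1 (0.61 ± 0.07) and Per1 (0.24 ± 0.07), and 4 rose and 2 fell at 48 h, with Mt2 (0.94 ± 0.11), Dusp1 (0.77 ± 0.08) and Mt1 (0.22 ± 0.05) having the smallest adjusted p. Of 17 transcription factors reported to act on the 10 genes, 1 rose and 6 fell at 24 h and 7 rose and 7 fell at 48 h. Nfe2l2 (-0.28 ± 0.04) and Hif1a (-0.22 ± 0.05) were lower at 24 h besides Trp53, and at 48 h Hif1a (-0.57 ± 0.05) was lower and Rela (0.46 ± 0.05) higher besides Ddit3.

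Fibroblast markers were present in every group, and 8 of 9 listed were tested. Their summed level at 24 h was 6870 to 7460 CPM in control libraries and 6244 to 6595 CPM with AS1411. At 48 h it was 7218 to 8536 CPM in control libraries and 4651 to 5222 CPM with AS1411. With AS1411 6 of 8 fell at 48 h (median -1.002), against 28.5% of all genes, and 2 of 8 at 24 h, against 16.7%. The part of these markers in the results above was not tested. Among markers of other cells, 1 of 10 for blood, Cd68, was tested and was at 3.73 to 4.07 CPM in control libraries and 11.9 to 13.1 CPM with AS1411 at 48 h (1.66 ± 0.16, adjusted p = 9.2e-08). Summed epithelial markers stayed at or under 0.399 CPM, endothelial ones at or under 1.98 CPM and glial ones at or under 2.11 CPM in every library. Neuronal markers summed to 55.3 to 75.4 CPM, nearly all from Tubb3 and Map2, and Tubb3 rose at 48 h (0.48 ± 0.08). Mitochondrially encoded transcripts took 0.713% to 0.897% of counts in control libraries at 24 h, 1.29% to 1.71% with AS1411 at 24 h, 0.863% to 1.22% in control libraries at 48 h and 1.07% to 1.19% with AS1411 at 48 h.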
